A study of Mus musculus with 6 samples.

Results

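Glycolysis and the pentose phosphate pathway were followed through 32 genes for glucose and lactate transport, the glycolytic enzymes, the entry of pyruvate into the mitochondrion and the pentose phosphate enzymes. They were picked by gene name from the 23398 genes of the deposited table, and each of the 32 names was found there as 1 entry. The RNA came from dendritic cells that had been derived from mouse bone marrow, exposed for 12 hours to vehicle (3 libraries) or to Ca(OH)2 (calcium hydroxide) nanoparticles (3 libraries). Strain, age, sex, culture cytokines and particle dose are not given in the sources used here. Nor is it stated whether the libraries came from separate cultures or pooled animals, so p-values measure the spread between these libraries, which may be technical. Values are FPKM (fragments per kilobase of gene, relative to a library scale), so levels of different genes can be set side by side. In bulk RNA, fewer cells of a type and less RNA per cell cannot be told apart.

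Glycolysis splits glucose into pyruvate in the cytosol. The pyruvate is either reduced to lactate, which leaves the cell through monocarboxylate transporters, or enters the mitochondrion, where the pyruvate dehydrogenase complex converts it. The pentose phosphate pathway branches off after the hexokinase step. Its oxidative arm makes NADPH and its non-oxidative arm exchanges sugars with glycolysis. Dendritic cells stimulated through pattern recognition receptors are known to increase glucose uptake and lactate release.

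Reads recovered from the values ran from 17285642 to 21980435 per library, and the tested members held 87 reads (Pfkm) to 38958 reads (Pkm) in a library. Nanoparticle library 1 stood apart from libraries 2 and 3: over 10682 tested genes its log2(FPKM + 1) values correlated at 0.942 and 0.928 with theirs, against 0.990 between libraries 2 and 3 (genes are not independent replicates). Changes of the members named below are given with and without it where its removal altered the call or moved the value by over 1.5 times. Fits without library 1 rest on nanoparticle libraries 2 and 3 alone, which were already known to lie close together. Their p-values leave out the spread that library 1 adds to its group. The dendritic cell gene Itgax was at 248 to 456 FPKM and the macrophage gene Cd68 at 294 to 589 FPKM, whereas Flt3 was below 0.08 FPKM throughout. Beside the marker counts that follow, 17.0% of all tested genes were higher and 16.2% lower with nanoparticles. Of 13 dendritic cell markers, 11 were tested, 1 higher and 5 lower, with a summed level of 5430 to 5840 FPKM in vehicle and 3100, 6330 and 6890 FPKM in nanoparticle libraries 1 to 3. Most of that sum was Cd74 and H2-Ab1, which were not called. The lower markers were Zbtb46, Cd209a, Clec10a, Clec9a and Ciita, each below vehicle in all 3 nanoparticle libraries, and Irf8 was the higher one. All 12 macrophage markers were tested, 4 higher and 4 lower. Their sums were 1200 to 1360 FPKM in vehicle and 1930, 1540 and 1600 FPKM with nanoparticles. The higher ones were Adgre1, Fcgr1, Cd14 and Cd68, and the lower ones Mrc1, C1qa, C1qb and C1qc. Cd14 was at 57.7 to 63.4 FPKM in vehicle and 645, 473 and 475 FPKM with nanoparticles. Mrc1 was at 51.8 to 62.8 FPKM in vehicle and 3.1, 10.6 and 9.57 FPKM with nanoparticles. Of 15 neutrophil markers 6 were tested, 3 higher and 1 lower, with sums of 276 to 309 FPKM in vehicle and 246, 333 and 344 FPKM with nanoparticles. Mmp8, which made up most of the vehicle sum, was the lower one, and S100a8, Lcn2 and Csf3r were higher. Lcn2 and Csf3r were under 1 FPKM in every vehicle library and passed the filter (1 FPKM in at least 3 libraries) only through the nanoparticle libraries. Being tested thus already required them to be high with nanoparticles. S100a9 and Mmp9 were 9.82 and 3.84 times vehicle in the mean of libraries 2 and 3 and 0.295 and 0.967 times in library 1. Camp and Ngp, too low to test, were highest in libraries 2 and 3, and Mpo and Elane were each at 0 in 5 libraries. Cxcr2, likewise too low to test, went the other way. It was at 0.395, 0.761 and 0.801 FPKM in vehicle and 0.0201, 0.139 and 0 FPKM with nanoparticles. Of 9 mast cell and basophil markers, 8 were in the table and 3 were tested, 1 higher, with sums of 1.55 to 2.94 FPKM in vehicle and 25.3, 9.33 and 8.94 FPKM with nanoparticles. Hdc, the one called, carried that difference (0.196 to 0.474 FPKM in vehicle and 24.1, 6.69 and 6.76 FPKM with nanoparticles), while Cpa3 and Kit were not called and the other 5 stayed under 1 FPKM. Hdc, too, passed the filter only through the nanoparticle libraries. The 6 lymphoid and 3 erythroid markers in the table stayed under 1 FPKM in every library. The part of these markers in the results was not tested.

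With nanoparticles the pathway did not move as a block. Of the 31 members that passed the filter of 1 FPKM in at least 3 libraries (Slc2a3 did not), 3 were higher: the transporter gene Slc2a6, the hexokinase gene Hk3 and the phosphoglycerate kinase gene Pgk1. Another 4 were lower, namely Pfkfb4, Ldhb, Slc16a1 and Pdha1. The calls are those of limma's moderated test at a Benjamini-Hochberg adjusted p under 0.05 over all 10682 genes, where 17.0% of genes were higher and 16.2% lower. The members' counts, 3 and 4 of 31, are thus no larger than the background. An unadjusted p under 0.05 was reached by 15 of the 31 members and by 44.4% of all tested genes.

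Without nanoparticle library 1 the counts became 19 higher and 7 lower of 31, with a background of 34.3% higher and 30.5% lower. All 7 members called with the 6 libraries were called again. The groups did not overlap in 16 members that were higher (background 25.9%) and 6 that were lower (background 26.2%). The median log2 change was 0.34 over the 31 members and -0.0010 over all tested genes, and without nanoparticle library 1 it was 0.26 and 0.02. When any 1 vehicle library was left out, Slc2a6 and Pfkfb4 were the members still called (background 10.8%, 10.6% and 10.4% higher and 10.1%, 9.9% and 9.61% lower).

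The scaling between libraries bears on these directions. With each library scaled to the same sum (TPM), 1 member was higher and 8 lower (background 7.96% and 40.8%), and the medians were -0.13 for members and -0.39 for all genes. With libraries scaled to their read totals the counts were 1 and 7 (background 10.2% and 34.3%) and the medians -0.0050 and -0.29. Groups without overlap numbered 2 higher and 13 lower members under TPM (background 11.7% and 51.7%), and 7 and 11 under read totals (background 14.2% and 45.7%). Counts were 20 and 7 with array weights (background 42.2% and 39.4%) and 2 and 3 of 32 with no filter (background 6.99% and 7.46%). The plot of all members by library shows the vehicle libraries close together and nanoparticle library 1 often apart.

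**Figure D1:**
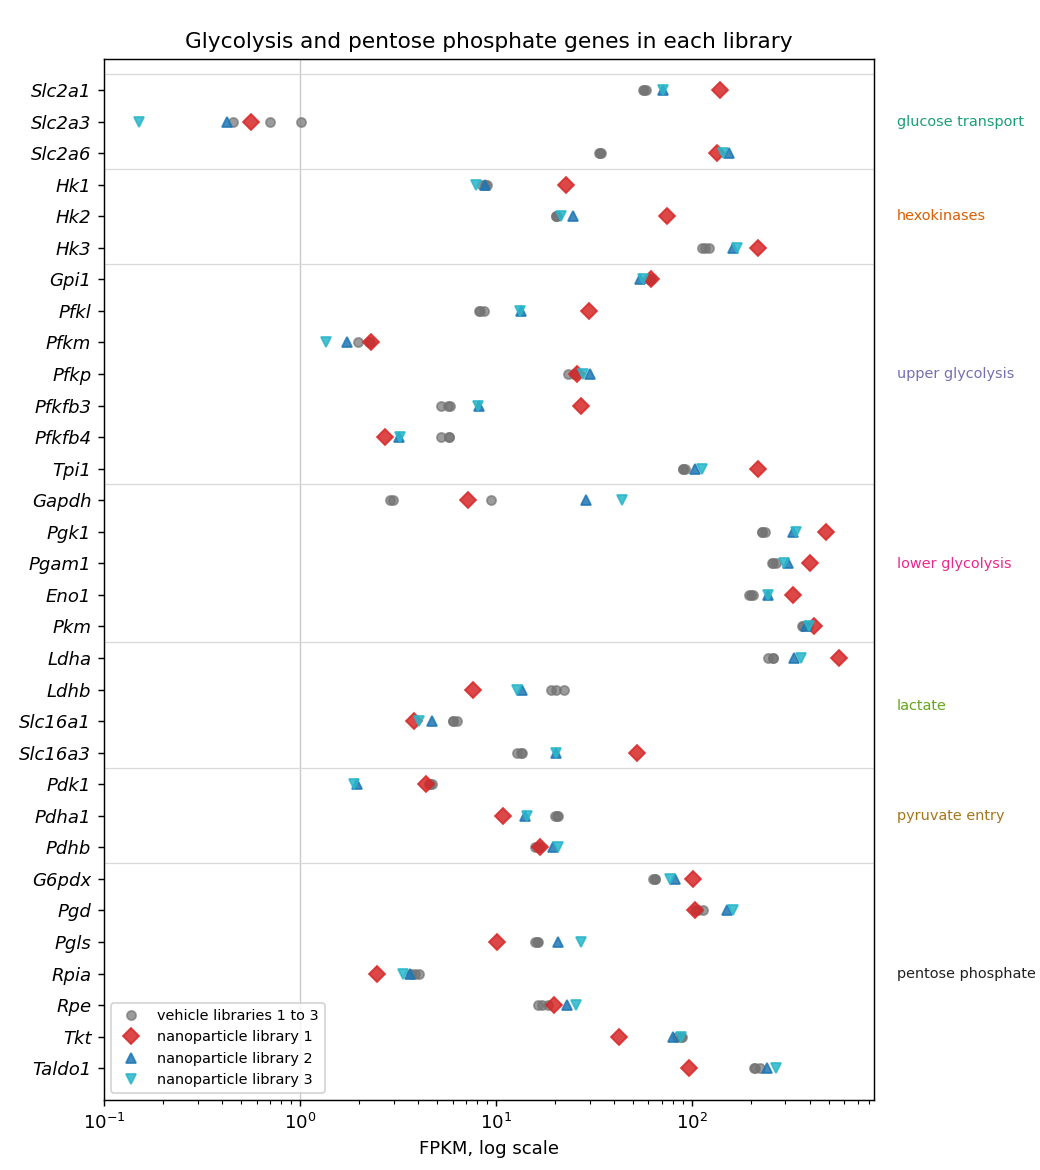
FPKM on a log axis (horizontal) of the 32 genes (rows, grouped by role) in the 3 vehicle libraries (grey circles) and in nanoparticle libraries 1 (red diamonds), 2 (blue upward triangles) and 3 (teal downward triangles). Slc2a6 lies far to the right of vehicle in all 3 nanoparticle libraries, while Hk2, Pfkfb3, Slc16a3 and Tpi1 do so mainly in library 1.

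Glucose enters through facilitative transporters. Slc2a6 (chr2:27021363-27027998, minus strand, GENCODE M21 on GRCm38) encodes GLUT6, a hexose transporter found largely on intracellular membranes. It was at 33.7, 33.9 and 34.3 FPKM in vehicle libraries 1 to 3 and at 134, 154 and 144 FPKM in nanoparticle libraries 1 to 3, the order used throughout. The groups lay far apart and nanoparticle library 1 was the lowest of its group. The log2 change was 2.05 (SE 0.104, limma adjusted p = 8.97e-05), a 4.25-fold ratio of means, and it passed in each of the 15 alternatives at 1.59 to 2.15.

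Slc2a1 encodes GLUT1, the main glucose transporter of the plasma membrane in many cells. It was at 58.5, 55.9 and 56.7 FPKM in vehicle and 139, 71.1 and 71.3 FPKM with nanoparticles. All nanoparticle values were above vehicle, but library 1 was far above the others and the difference did not pass (log2 change 0.63, SE 0.271, limma adjusted p = 0.122). It passed without library 1, at a log2 change of 0.32 (limma adjusted p = 0.00156), and under TPM scaling it was 0.17. Slc2a3, for the high-affinity transporter GLUT3, was too low to test, with 69 to 145 reads in vehicle and 66, 51 and 21 reads with nanoparticles. Its levels of 0.6997, 1.010 and 0.456 FPKM in vehicle and 0.558, 0.425 and 0.150 FPKM with nanoparticles overlapped.

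Together the 3 transporter genes summed to 91.7 ± 1.02 FPKM in vehicle (SD, n = 3) and 274, 226 and 216 FPKM with nanoparticles. Of that sum Slc2a1 made up 63.0%, 61.6% and 62.0% in vehicle and 50.8%, 31.5% and 33.1% with nanoparticles. Its share was lower in each nanoparticle library, a mean difference of -23.7 percentage points (exact permutation test, two-sided, p = 0.1, adjusted p = 0.12 over 6 shares, n = 3 per group). With 3 libraries against 3, 0.1 is the smallest p that the exact permutation test can give. Shares within a library do not depend on the scaling between libraries.

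Hexokinases trap glucose in the cell as glucose phosphate. Hk3 (chr13:55005985-55021385, minus strand), the isozyme typical of myeloid cells, was the most abundant at 122, 112 and 116 FPKM in vehicle and 217, 163 and 169.5 FPKM with nanoparticles. The groups did not overlap, and library 1 was the highest. For Hk3 the log2 change was 0.63 (SE 0.147, limma adjusted p = 0.0186), which was 0.50 without library 1 (limma adjusted p = 0.000356). The call was lost under TPM scaling (log2 change 0.16) and read total scaling (0.29), and when any vehicle library was left out.

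Hk2, an inducible isozyme that binds mitochondria, was at 20.1, 20.3 and 20.4 FPKM in vehicle and 74.2, 24.8 and 21.4 FPKM with nanoparticles. Library 1 held 3.66 times the vehicle mean, and the mean of libraries 2 and 3 was 1.14 times it. Its log2 change of 0.73 (SE 0.446) did not pass (limma adjusted p = 0.263), and without library 1 it was 0.18 (limma adjusted p = 0.0686). Hk1, the isozyme of most tissues, was at 8.51, 8.76 and 9.02 FPKM in vehicle and 22.6, 8.82 and 7.94 FPKM with nanoparticles. Its groups overlapped, with library 1 well above vehicle, and the log2 change was 0.39 with that library and -0.0591 without it (limma adjusted p = 0.464 and 0.487). Hk2 made up 13.3%, 14.3% and 14.0% of the hexokinase sum in vehicle and 23.6%, 12.7% and 10.8% with nanoparticles (exact permutation test, two-sided, p = 1, n = 3 per group). The share was above vehicle in library 1 and below it in libraries 2 and 3, so the mean difference of 1.80 percentage points became -2.18 without library 1. The family sum was 146 ± 4.62 FPKM in vehicle (SD, n = 3) and 314, 196 and 199 FPKM with nanoparticles.

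In upper glycolysis, from glucose phosphate to the triose phosphates, 1 of 7 members passed with all 6 libraries (background 17.0% higher and 16.2% lower). Without library 1, 4 were higher and 3 lower (background 34.3% and 30.5%). Phosphofructokinase commits sugar to glycolysis. The liver-type subunit gene Pfkl was at 8.28, 8.63 and 8.16 FPKM in vehicle and 29.7, 13.3 and 13.3 FPKM with nanoparticles, above vehicle in every library. Its log2 change was 0.98 (SE 0.304, limma adjusted p = 0.0501), just outside the threshold, and 0.61 without library 1 (limma adjusted p = 0.000201). Pfkp, the platelet-type subunit and the most abundant of the family in vehicle, was at 23.3, 24.9 and 25.7 FPKM there and 25.9, 30.0 and 27.9 FPKM with nanoparticles. The groups were adjacent without overlap, and the log2 change of 0.18 did not pass (limma adjusted p = 0.243). Without library 1 it was 0.23 (limma adjusted p = 0.023), and it was -0.28 and -0.16 under the TPM and read total scalings, where it did not pass.

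Pfkm, the muscle-type subunit, was low, at 2.27, 2.25 and 1.97 FPKM in vehicle and 2.31, 1.74 and 1.35 FPKM with nanoparticles, and overlapped (log2 change -0.19, limma adjusted p = 0.37). Without library 1 the log2 change of Pfkm was -0.32 (limma adjusted p = 0.0353). The Pfkp share of the 3 subunit genes was 68.8%, 69.6% and 71.7% in vehicle and 44.7%, 66.6% and 65.5% with nanoparticles. It was below vehicle in each nanoparticle library (difference -11.1 percentage points, exact permutation test, two-sided, p = 0.1, adjusted p = 0.12, n = 3 per group). Without library 1 the difference was -3.96 percentage points.

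The bifunctional enzymes of the PFKFB family make and remove the sugar phosphate that activates phosphofructokinase. Pfkfb4 (chr9:108991778-109032228, plus strand) was at 5.23, 5.77 and 5.72 FPKM in vehicle and 2.70, 3.21 and 3.23 FPKM with nanoparticles. It was lower in every nanoparticle library, at a log2 change of -0.70 (limma adjusted p = 0.003 and SE 0.101), and passed in each of the 14 alternatives in which the gene was tested. Pfkfb3, the member whose kinase activity dominates, was at 5.79, 5.71 and 5.23 FPKM in vehicle and 27.1, 8.14 and 8.11 FPKM with nanoparticles. Library 1 was 4.87 times the vehicle mean, and the mean of libraries 2 and 3 was 1.46 times it. The log2 change of 1.02 (SE 0.439) did not pass (limma adjusted p = 0.126), and without library 1 it was 0.47 (limma adjusted p = 0.00127). The pair summed to 11.2 ± 0.291 FPKM in vehicle (SD, n = 3) and 29.9, 11.3 and 11.3 FPKM with nanoparticles, so in libraries 2 and 3 the sum was near the vehicle level. Within it the Pfkfb3 share was 52.5%, 49.7% and 47.8% in vehicle and 91.0%, 71.7% and 71.5% with nanoparticles (difference 28.1 percentage points, exact permutation test, two-sided, p = 0.1, adjusted p = 0.12, n = 3 per group).

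The remaining members of this segment were Tpi1, for triosephosphate isomerase, and Gpi1, for glucose phosphate isomerase. Tpi1 was at 89.8, 89.9 and 92.2 FPKM in vehicle and 218, 104 and 112 FPKM with nanoparticles, 2.41 times vehicle in library 1 and 1.19 times in the mean of libraries 2 and 3 (log2 change 0.59, limma adjusted p = 0.169). Gpi1 stayed within 54.4 to 62.1 FPKM in all libraries and overlapped (log2 change -0.0835, limma adjusted p = 0.578). Without library 1 both passed, Tpi1 at a log2 change of 0.25 and Gpi1 at -0.14 (limma adjusted p = 0.00758 and 0.0451). Gpi1 was also called lower under TPM and read total scaling, at -0.55 and -0.42 (limma adjusted p = 0.0177 and 0.0196). Fitted changes with and without library 1 are plotted for all tested members.

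**Figure D2:**
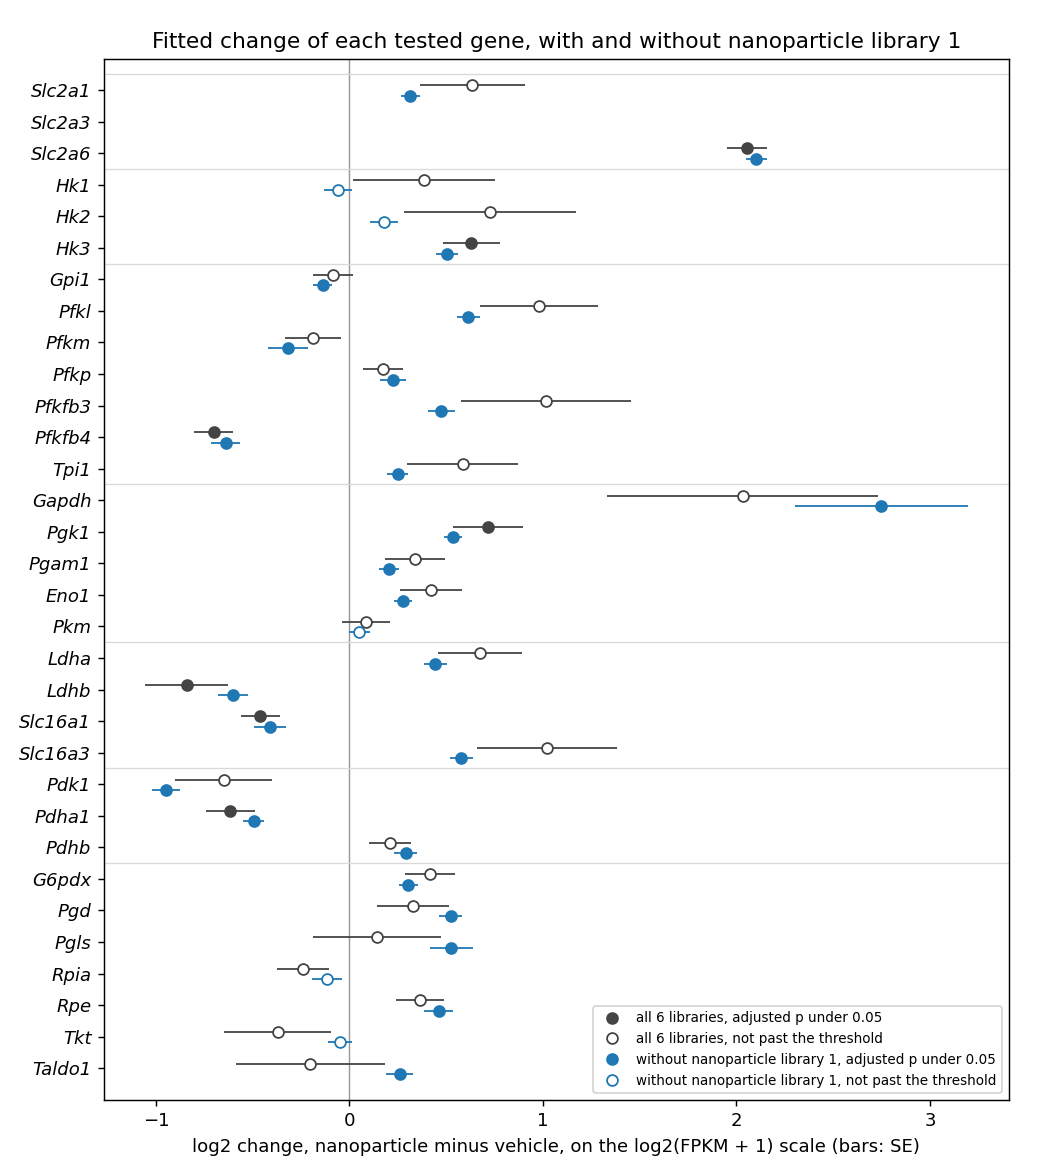
Log2 change (horizontal, nanoparticle minus vehicle on the log2(FPKM + 1) scale, bars are SE) of the 31 tested genes with all 6 libraries and without nanoparticle library 1, filled where the limma adjusted p was under 0.05. Filled points number 7 with all libraries and 26 without library 1.

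In lower glycolysis, which yields ATP and pyruvate, 1 of 5 members rose (background 17.0%). Pgk1 (chrX:106187100-106203699, plus strand) encodes the ATP-generating phosphoglycerate kinase. It was at 235, 227 and 228 FPKM in vehicle and 484, 329 and 339 FPKM with nanoparticles, with no overlap. Its log2 change of 0.71 (SE 0.181, limma adjusted p = 0.0255) became 0.54 without library 1 (limma adjusted p = 0.000137). The call was lost under TPM scaling (log2 change 0.24), under read total scaling (0.37), with no filter on low values, with the replicate number as a block, and without any 1 vehicle library. Eno1 (enolase) was at 201, 205 and 196 FPKM in vehicle and 329, 244 and 244 FPKM with nanoparticles. Pgam1 (phosphoglycerate mutase) was at 259, 256 and 268 FPKM in vehicle and 398, 308 and 294 FPKM with nanoparticles. Both were above vehicle in every nanoparticle library without passing (log2 changes 0.42 and 0.34, limma adjusted p = 0.0871 and 0.146). Without library 1 both passed, at 0.28 and 0.20 (limma adjusted p = 0.00234 and 0.0113). Pkm, for the pyruvate kinase of most tissues, had the highest vehicle level of all members at 391, 369.6 and 366 FPKM and was at 419, 381 and 397 FPKM with nanoparticles, which overlapped (log2 change 0.0859, and 0.0507 without library 1, limma adjusted p = 0.634 and 0.437).

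Gapdh, for the dehydrogenase that makes NADH in glycolysis, had values far below its neighbours in the pathway. It was listed at 2.98, 9.44 and 2.86 FPKM in vehicle and at 7.22, 28.8 and 43.8 FPKM with nanoparticles. Vehicle library 2 lay above nanoparticle library 1, so the groups overlapped. The log2 change of 2.03 (SE 0.7002) did not pass (limma adjusted p = 0.0687), and it was 2.75 without library 1 (limma adjusted p = 0.00194). Of the runs of 50 bases in the annotated Gapdh transcripts, 25.1% also occur in transcripts of other genes, among them 215 annotated pseudogenes, and how such reads were counted is not stated. The Gapdh values are therefore uncertain. The same share was 53.9% for Pgk1, 36.2% for Pgam1, 26.0% for Eno1 and 25.8% for Pkm, whose values are uncertain likewise. It was above 5% in 16 of the 32 members. Those 4 genes had much higher values than Gapdh, and the part of shared reads in the low Gapdh values was not tested.

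At the lactate step 2 of 4 members fell (background 16.2%), while the other 2 were above vehicle in every nanoparticle library without passing. Ldha, for the lactate dehydrogenase subunit that favours lactate formation, was at 246, 258 and 259 FPKM in vehicle and 561, 332 and 361 FPKM with nanoparticles. Its log2 change of 0.68 (SE 0.218) missed the threshold (limma adjusted p = 0.0566) and was 0.44 without library 1 (limma adjusted p = 0.000717). Ldhb (chr6:142490249-142507957, minus strand), for the heart-type subunit, was at 22.2, 19.1 and 20.2 FPKM in vehicle and 7.61, 13.6 and 12.8 FPKM with nanoparticles, lowest in library 1. The log2 change was -0.84 (SE 0.214, limma adjusted p = 0.0258), and -0.60 without library 1 (limma adjusted p = 0.000706). The Ldhb share of the pair was 8.31%, 6.89% and 7.24% in vehicle and 1.34%, 3.92% and 3.42% with nanoparticles, with no overlap (difference -4.59 percentage points, exact permutation test, two-sided, p = 0.1, adjusted p = 0.12, n = 3 per group).

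Slc16a3 encodes MCT4, the low-affinity exporter of lactate in glycolytic cells, and Slc16a1 encodes MCT1, which carries lactate in either direction. Slc16a3 was at 12.7, 13.3 and 13.6 FPKM in vehicle and 52.2, 20.2 and 20.3 FPKM with nanoparticles, 3.94 times vehicle in library 1 and 1.53 times in the mean of libraries 2 and 3. Its log2 change of 1.02 (SE 0.361) did not pass (limma adjusted p = 0.0745), and without library 1 it was 0.58 (limma adjusted p = 0.000225). Slc16a1 (chr3:104638668-104658462, plus strand) was at 6.01, 6.01 and 6.34 FPKM in vehicle and 3.83, 4.71 and 4.02 FPKM with nanoparticles, without overlap. The log2 change was -0.46 (SE 0.102, limma adjusted p = 0.0155). The Slc16a3 share of this pair was 68.0%, 68.9% and 68.2% in vehicle and 93.2%, 81.1% and 83.5% with nanoparticles (difference 17.5 percentage points, exact permutation test, two-sided, p = 0.1, adjusted p = 0.12, n = 3 per group). Ldhb and Slc16a1 also passed under both scalings, with log2 changes of -1.28 and -0.85 under TPM. They missed the threshold when any vehicle library was left out and with the replicate number as a block, and Ldhb also with no filter on low values. The shares of all 6 families are plotted by library.

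**Figure D3:**
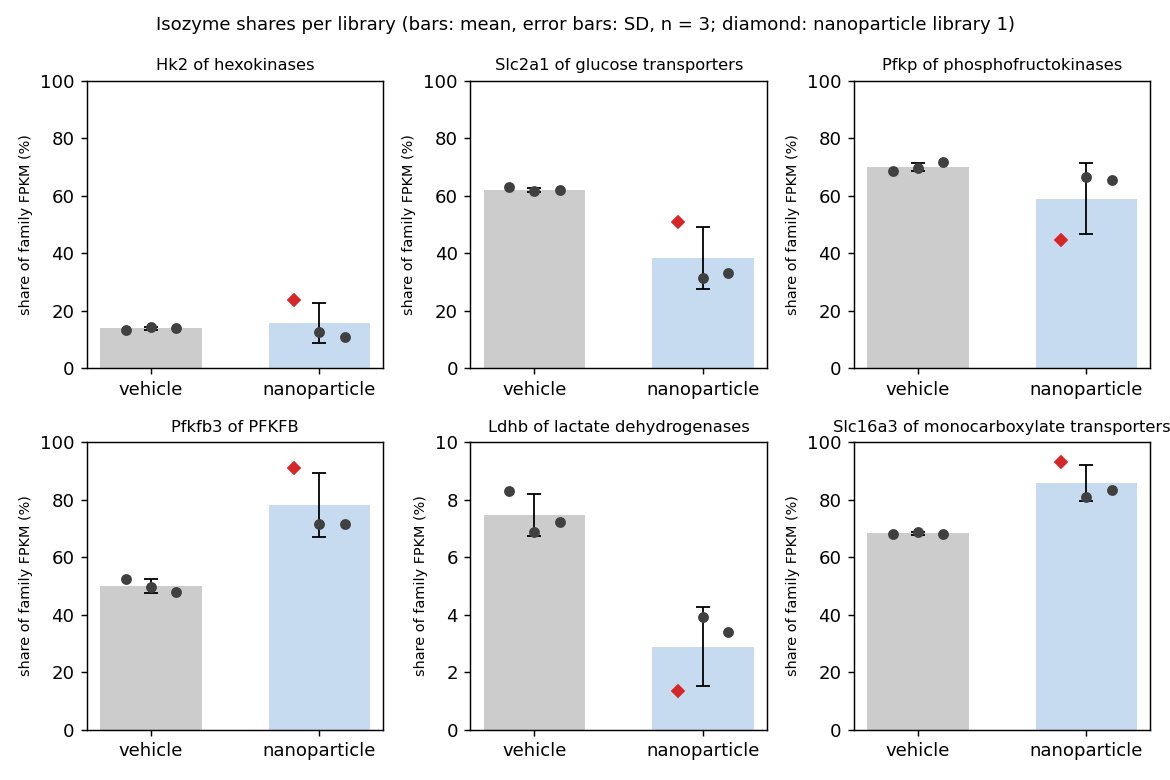
Share in percent (vertical) of 1 gene in the summed FPKM of its family in vehicle and nanoparticle libraries (bars are means, error bars SD, n = 3, points are libraries, the diamond is nanoparticle library 1; the Ldhb axis ends at 10%). Groups do not overlap in 5 of the 6 panels, the exception being Hk2.

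For the entry of pyruvate into the mitochondrion, 1 of 3 members fell (background 16.2%). Pdha1 (chrX:160122209-160138413, minus strand) encodes the catalytic alpha subunit of pyruvate dehydrogenase. It was at 20.4, 20.6 and 20.1 FPKM in vehicle and 10.8, 14.0 and 14.3 FPKM with nanoparticles, below vehicle in each. The log2 change was -0.615 (SE 0.127, limma adjusted p = 0.0121), and -0.50 without library 1 (limma adjusted p = 0.000317). It passed under both scalings and missed the threshold when any vehicle library was left out, where the limma adjusted p reached 0.0596. Pdhb, the beta subunit of the same enzyme, was at 15.8, 16.7 and 16.3 FPKM in vehicle and 16.9, 19.6 and 20.7 FPKM with nanoparticles (log2 change 0.21, limma adjusted p = 0.193), and without library 1 the log2 change of 0.29 passed (limma adjusted p = 0.0051). Pdk1, for a kinase that inhibits the complex, was at 4.53, 4.58 and 4.71 FPKM in vehicle and 4.40, 1.94 and 1.88 FPKM with nanoparticles. Here library 1 was close to vehicle and the mean of libraries 2 and 3 was 0.414 of it. The log2 change of -0.65 (SE 0.251) did not pass (limma adjusted p = 0.0943), and without library 1 it was -0.95 (limma adjusted p = 6.72e-05). With all 6 libraries Pdk1 passed under TPM scaling, at -1.0016, and under read total scaling, at -0.91 (limma adjusted p = 0.0293 and 0.0275).

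None of the 7 pentose phosphate members passed with 6 libraries, and 5 were higher without library 1 (background 34.3%). G6pdx, for glucose phosphate dehydrogenase, the first NADPH-making step, was at 64.6, 65.0 and 63.0 FPKM in vehicle and 101, 81.5 and 77.6 FPKM with nanoparticles, with no overlap (log2 change 0.42, limma adjusted p = 0.0522). Pgd, for the other NADPH-making step, was at 104 to 114 FPKM in vehicle and 104, 151 and 162 FPKM with nanoparticles (limma adjusted p = 0.231). Pgls, for the lactonase between these steps, was at 15.8 to 16.4 FPKM in vehicle and 10.1, 20.6 and 27.2 FPKM with nanoparticles (limma adjusted p = 0.777). In Pgd and Pgls, library 1 was below every vehicle library and libraries 2 and 3 above. Rpe, for the ribulose phosphate epimerase, was at 16.4 to 18.4 FPKM in vehicle and 19.6, 22.96 and 25.6 FPKM with nanoparticles (limma adjusted p = 0.0671). Rpia, for the ribose phosphate isomerase, was at 3.67 to 4.05 FPKM in vehicle and 2.47, 3.64 and 3.33 FPKM with nanoparticles (limma adjusted p = 0.218).

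The non-oxidative enzymes of sugar exchange split by library. Tkt (transketolase) was at 88.8, 88.3 and 83.6 FPKM in vehicle and 42.5, 80.1 and 88.0 FPKM with nanoparticles, 0.489 of vehicle in library 1 and 0.968 in the mean of libraries 2 and 3. Taldo1 (transaldolase) was at 223, 209 and 207 FPKM in vehicle and 97.01, 241 and 270.1 FPKM with nanoparticles, 0.456 of vehicle in library 1 and 1.20 times vehicle in the mean of libraries 2 and 3. Its log2 change was -0.20 with all libraries (limma adjusted p = 0.726) and 0.26 without library 1 (limma adjusted p = 0.0148). Without library 1 the log2 changes of Pgd, Pgls, Rpe and G6pdx were 0.52, 0.53, 0.46 and 0.30 (limma adjusted p = 0.000408, 0.0059, 0.00198 and 0.0021). Under TPM scaling of all 6 libraries they were -0.14, -0.31, -0.0849 and -0.0481, and none of the 4 passed. Tkt and Rpia were called lower under TPM, at -0.84 and -0.61 (limma adjusted p = 0.0167 and 0.00605), and Rpia also under read totals, at -0.51 (limma adjusted p = 0.019). As deposited their log2 changes were -0.37 and -0.24, and -0.0482 and -0.12 without library 1, and neither passed.

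Among the nanoparticle libraries, library 1 was the highest in 17 of the 31 tested members and the lowest in 14 (42.3% and 46.3% of all tested genes). Under TPM scaling the counts were 19 and 10 (55.7% and 33.6% of all), and under read totals 17 and 14 (44.9% and 43.7%). By role it was the highest in all 3 hexokinases, in 5 of 7 upper and 4 of 5 lower glycolysis genes, and the lowest in 6 of 7 pentose phosphate genes. It differed from the mean of libraries 2 and 3 by at least 2-fold on the log2(FPKM + 1) scale in 9 of 31 members (29.0%), against 11.8% of all tested genes. The median size of that log2 difference was 0.535 in members and 0.382 in all genes, whereas libraries 2 and 3 differed from each other by a median of 0.0805 and 0.137. In library 1, 10 of the 31 members were at 2 times the vehicle mean or more, against 12.4% of all tested genes. In the mean of libraries 2 and 3 this held for 2 members, Slc2a6 and Gapdh, against 9.96% of all. The scatter of these ratios shows each gene in both.

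**Figure D4:**
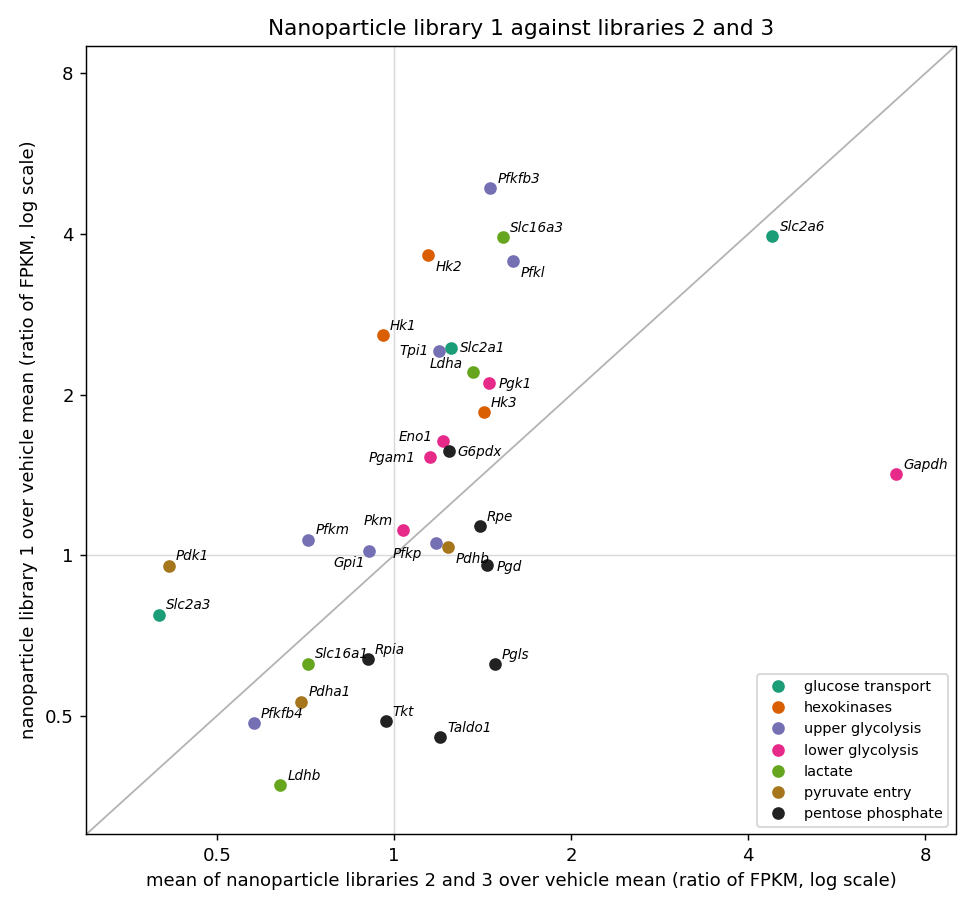
Ratio of FPKM to the vehicle mean in nanoparticle library 1 (vertical) against the mean of libraries 2 and 3 (horizontal), both on log scales, for the 32 members coloured by role; the diagonal marks equal ratios. Pfkfb3, Slc16a3, Hk2 and Pfkl lie far above the diagonal, Gapdh, Taldo1, Pgls and Tkt below it, and Slc2a6 close to it.

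Genes of the response to low oxygen outside glycolysis were read beside this, since HIF1A, a transcription factor of that response, is known to act on many glycolytic genes. Of 24 such genes, 23 were in the table and 21 were tested. Library 1 was the highest nanoparticle library in 19 of the 21, and in 42.3% of all tested genes. With all libraries 10 were higher and 0 lower in limma's test, where the background was 17.0% higher and 16.2% lower. Without library 1, 13 were higher and 1 lower (background 34.3% and 30.5%). Adm, counted as higher in both, and Egln3, counted as higher without library 1, were under 1 FPKM in every vehicle library. They passed the filter only through the nanoparticle libraries. Hif1a itself was at 20.8, 20.3 and 21.4 FPKM in vehicle and 94.2, 39.7 and 38.9 FPKM with nanoparticles (log2 change 1.30, limma adjusted p = 0.0287). Hilpda, a lipid droplet protein gene, was at 14.5 to 15.4 FPKM in vehicle and 359, 58.7 and 53.4 FPKM with nanoparticles (log2 change 2.73, limma adjusted p = 0.0281). Without library 1 the log2 changes of Hif1a and Hilpda were 0.89 and 1.84, and both passed. Mif, a cytokine gene, was at 133 to 139 FPKM in vehicle and 346, 293 and 329 FPKM with nanoparticles, and Plin2, another lipid droplet gene, was at 79.8 to 87.8 and 185, 132 and 134 FPKM. In Hif1a and Hilpda library 1 was far above libraries 2 and 3, and in Mif the 3 were closer. The summed level of the list was 413 to 432 FPKM in vehicle and 1500, 749 and 786 FPKM with nanoparticles. Mif, Plin2 and Hilpda made up most of that sum in every library. Beside the 13 genes called higher without library 1, some others were not above the vehicle mean in the mean of libraries 2 and 3. In the mean of those 2 libraries Vegfa, Egln1, Ddit4 and Kdm3a were at 0.770, 0.941, 0.940 and 0.979 times vehicle. In library 1 they were at 7.97, 2.51, 4.27 and 3.18 times. Bnip3l and Car9 were at 0.97 and 0.852 times in that mean and at 1.135 and 0.757 times in library 1. Ankrd37 and Ero1l, not called, were at 1.58 and 1.145 times in that mean and at 2.965 and 5.58 times in library 1. The part of this response in the members' values was not tested.

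The 250 bases upstream of the members' RefSeq start sites (GRCm38.p6) were searched on both strands for the HIF core letters ACGTG and GCGTG and for a common form of the NF-kappaB site, which reads GGG, any 2 bases, then TTTCC. Of the 32 members 31 were in the promoter table, with 42 start sites, and Slc2a3 was not. ACGTG was found upstream of 33.3% of the members' start sites and of 16.6% of all 32851 start sites, and GCGTG upstream of 61.9% and 28.2%. The members' windows were richer in G and C (median 60.4%) than all windows (52.4%), and the part of this in the counts was not tested. Either form was found upstream of 81.0% of the members' start sites and of 38.6% of all. The counts that follow are by gene, and a match in any window of a gene was enough. They cannot be set directly beside the shares of start sites. Among the 10 members at 2 times vehicle or more in library 1, ACGTG occurred in 6, GCGTG in 6 and either form in 9. Among the other 21 these counts were 6, 17 and 19, so the 2 forms ran in opposite directions and either form was about as common in both sets. These counts are a description with no test. The NF-kappaB letters occurred in 0 of the 42 member windows and in 1.41% of all windows. The palindrome CACGTG holds ACGTG on each strand and counts as 2 matches. Shown are the member with the largest change that passed, Slc2a6, and 4 members with higher values in library 1 that hold ACGTG, 5′ to 3′ on the gene's strand, with matches to the searched letters in capitals.
Slc2a6 (chr2:27027999-27028248, minus strand): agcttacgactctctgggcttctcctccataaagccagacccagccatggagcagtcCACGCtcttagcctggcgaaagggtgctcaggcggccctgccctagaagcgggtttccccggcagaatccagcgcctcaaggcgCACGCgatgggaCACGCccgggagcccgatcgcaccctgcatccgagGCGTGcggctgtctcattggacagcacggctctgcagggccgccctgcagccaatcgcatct
Hk2 (chr6:82774455-82774704, minus strand): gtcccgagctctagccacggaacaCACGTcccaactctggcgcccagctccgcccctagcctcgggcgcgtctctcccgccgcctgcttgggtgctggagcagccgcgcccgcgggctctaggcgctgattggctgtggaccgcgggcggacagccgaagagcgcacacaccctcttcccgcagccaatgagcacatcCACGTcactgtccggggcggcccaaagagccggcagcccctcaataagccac
Pgk1 (chrX:106186850-106187099, plus strand): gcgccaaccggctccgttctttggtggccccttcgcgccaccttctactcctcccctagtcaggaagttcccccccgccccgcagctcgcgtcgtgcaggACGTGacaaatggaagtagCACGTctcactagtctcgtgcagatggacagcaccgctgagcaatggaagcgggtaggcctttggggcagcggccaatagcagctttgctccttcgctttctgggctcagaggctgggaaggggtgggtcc
Ldha (chr7:46845554-46845803, plus strand): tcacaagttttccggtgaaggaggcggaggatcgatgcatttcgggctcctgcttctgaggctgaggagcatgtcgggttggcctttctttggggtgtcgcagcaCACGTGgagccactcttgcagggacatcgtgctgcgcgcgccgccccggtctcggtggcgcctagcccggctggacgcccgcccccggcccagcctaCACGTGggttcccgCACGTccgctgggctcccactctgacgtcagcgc
Slc16a3 (chr11:120948817-120949066, plus strand): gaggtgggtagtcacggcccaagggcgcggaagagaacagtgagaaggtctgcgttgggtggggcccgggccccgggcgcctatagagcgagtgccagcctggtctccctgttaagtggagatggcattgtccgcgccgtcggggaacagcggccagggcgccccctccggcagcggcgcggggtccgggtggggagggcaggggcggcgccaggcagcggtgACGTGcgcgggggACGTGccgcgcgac

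On the opposite strand ACGTG reads CACGT and GCGTG reads CACGC. The Slc2a6 window holds 4 matches to GCGTG and 0 to ACGTG, the Ldha window shown holds 5 to ACGTG, and those of Hk2, Pgk1 and Slc16a3 hold 2 to ACGTG each. The window of the other Ldha start site, not shown, holds 0 to ACGTG and 1 to GCGTG. Other windows not shown go the other way. That of Slc16a1, called lower, holds 2 to ACGTG and 2 to GCGTG. That of Tpi1, at 2.41 times vehicle in library 1, holds 0 to either form. A match is a run of letters and says nothing on whether a factor was bound in these cells.

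Further genes of these pathways were taken from a list of 53, of which 47 were in the table, Aldoa with 2 entries, and 27 entries were tested. With all libraries 4 were higher and 6 lower (background 17.0% and 16.2%), and without library 1 8 and 11 (34.3% and 30.5%). Bsg encodes basigin, the chaperone that brings lactate transporters to the cell surface. It was at 134, 130.1 and 124 FPKM in vehicle and 192, 191 and 203 FPKM with nanoparticles, close together within the nanoparticle group (log2 change 0.59, limma adjusted p = 0.00752). Dld, the dihydrolipoamide dehydrogenase subunit of the pyruvate dehydrogenase complex, was at 20.8 to 22.2 FPKM in vehicle and 29.4, 31.6 and 32.6 FPKM with nanoparticles (log2 change 0.52, limma adjusted p = 0.00757). The other higher genes, named after their values were seen, were the aldolase gene Aldoa (log2 change 0.43) and the phosphoglucomutase gene Pgm2 (log2 change 1.14, and 0.73 without library 1). Among the lower genes, Prps2, for a synthetase that passes ribose phosphate to nucleotide synthesis, was at 7.10 to 8.40 FPKM in vehicle and 3.43, 4.42 and 4.37 FPKM with nanoparticles (log2 change -0.81, limma adjusted p = 0.00367). Slc2a8, for a glucose transporter of intracellular membranes, had a log2 change of -0.52 (limma adjusted p = 0.00929). Pdk2, for another pyruvate dehydrogenase kinase, was at -0.57, and Aldoc, an aldolase isozyme, at -0.999 (limma adjusted p = 0.0106 and 0.0177). The remaining lower genes were Pdp1, at -0.33, and the other phosphoglucomutase gene Pgm1, at -0.42 (limma adjusted p = 0.0341 and 0.0424). Pgm1 and Pgm2 thus went opposite ways. Under both other scalings 0 of the list were higher in limma's test and 15 lower. The background was 7.96% higher and 40.8% lower under TPM, and 10.2% and 34.3% under read totals.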

How the data were processed

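RNA of bone marrow dendritic cells (total RNA, NucleoSpin kit, NEBNext Ultra II libraries from 1 µg, per the labels' protocols) was sequenced in 3 vehicle and 3 nanoparticle libraries. The submitters' processing notes name CASAVA, STAR 2.5, HTSeq, edgeR 3.16.5 and DESeq2, and builds hg19 and mm10, with no role or order. The authors deposited 2 tables whose 140388 values are identical. The values the authors deposited are taken here to be FPKM, which no label states: multiplied by GENCODE M21 exon lengths and 1 scale per library, 95.8% to 96.1% of values above 0 are whole reads (within 0.01). Those scales differ by at most 0.0166% from median-of-ratios size factors, not library totals, so a common shift of most genes cannot be seen. Totals use lengths found from the values for 542 genes.

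Here limma 3.58.1 in R 4.3.3 was fitted to log2(FPKM + 1) over all genes that reached 1 FPKM in 3 or more libraries (lmFit, eBayes with trend, group as single term). The fit was run on simulated data with the same spread in both groups and no library set apart. That check does not cover a library as far apart as nanoparticle library 1. Fold changes on the log2(FPKM + 1) scale understate low genes. Shares were tested with exact permutation in scipy 1.17.1 under Python 3.11.15, and figures drawn with matplotlib 3.10.9. Chi-square per degree of freedom between replicates was 2.85 to 231, so none was counted as a duplicate. The alternatives are listed in the closing section. The members and lists were chosen with earlier results of these data known. Values in every library are given for members called with all libraries, for members called without nanoparticle library 1 with a log2 change of at least 1, and for isozyme families. Of the other pathway genes the 6 smallest adjusted p are given, and of the low-oxygen list Hif1a and the 3 highest means. Further genes named from these lists were added after their values were seen.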

Additional observations from a re-analysis of the deposited data

How the results depend on the processing

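Tested members held 87 reads or more, but Slc2a3 was too low to test, and the scaling of the deposited values cannot be checked against an outside standard. Values of Gapdh, Pgk1, Pgam1, Eno1, Pkm and other members with shared sequence may depend on how shared reads were counted, which was not tested. Alternatives were a pseudocount of 0.1, no filter, a filter at a mean of 5 FPKM (27 members tested), TPM and read total scaling, no trend, robust moderation, array weights, a replicate block and leaving out each library. Slc2a6 was called higher in all 15, and Pfkfb4 lower in the 14 that tested it. Same-numbered libraries correlated at 0.0654, 0.113 and -0.0577 in their deviations from the group means, and differently numbered ones at -0.129 to 0.108. With 3 libraries per group and nanoparticle library 1 far apart, this cannot tell whether the numbers pair the libraries. With the replicate block 3 members were higher and 2 lower (background 13.6% and 12.5%), and 2 other pathway genes higher. Members higher (3) and lower (4) were 1 and 8 under TPM, 1 and 7 under read totals, 20 and 7 with array weights (whose fit stopped before full convergence), 5 higher with no trend, and 1 to 19 higher and 1 to 7 lower with 1 library left out; the low ends came without any 1 vehicle library, the high ends without nanoparticle library 1. Other pathway genes higher (4) and lower (6) were 0 and 15 under TPM, 0 and 15 under read totals, 8 and 16 with array weights, 2 higher with no filter, and 0 to 8 higher and 2 to 11 lower with 1 library left out. Of all genes 7.96% were higher and 40.8% lower under TPM, and 10.2% and 34.3% under read totals. The shares were 42.2% and 39.4% with array weights, 17.1% and 16.2% with no trend, and 6.99% and 7.46% with no filter. With 1 library left out they ran from 10.4% to 34.3% higher and 9.61% to 30.5% lower. Non-overlapping members (16 higher, 6 lower) were 2 and 13 under TPM (background 11.7% and 51.7%) and 7 and 11 under read totals (background 14.2% and 45.7%). With 1 library left out the Hk2 share difference ran from -2.18 (without nanoparticle library 1) to 4.25 percentage points. Without that library the Pfkp share difference fell in size from -11.1 to -3.96. Log2 changes that turned sign were, under TPM, Hk1 -0.0366, Pfkp -0.28, Pgam1 -0.13, Eno1 -0.0473, Pkm -0.38, Pdhb -0.24, G6pdx -0.0481, Pgd -0.14, Pgls -0.31 and Rpe -0.0849; under read totals, Pfkp -0.16, Pgam1 -0.0050, Pkm -0.26, Pdhb -0.12, Pgd -0.0144 and Pgls -0.18; and with array weights, Taldo1 0.18. With 1 library left out, Hk1 ran from -0.0591 to 0.643, Taldo1 from -0.474 to 0.26 and Pgls from -0.15 to 0.53. None of these was called with all libraries. All genes had median log2 changes of -0.39 and -0.29 under the 2 scalings; the cause of the other changes was not tested. Scaling counts of library 1's rank, chosen after seeing the data, stayed within 1.5 times.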
